A study of Mus musculus with 2 samples.

Results

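Parvalbumin interneurons were examined in single-cell RNA-seq of the hippocampus of aged C57BL/6 mice, with 1 library from control mice and 1 from mice fed tomatidine, a steroidal alkaloid aglycone found in tomato. Each library pooled 4 mice of a study that used both sexes, which were 21 months old when the diets began and were kept on standard chow or on chow with 0.05% tomatidine for 3 months. The study addressed whether tomatidine alters cellular senescence and brain function in old age. The libraries came from fixed cells and a probe-based kit, and each value is the number of unique molecular identifiers (UMIs, tags that mark single captured molecules) of a gene in a cell. The 4 mice of a library cannot be told apart, so the groups have no replicate check, no test between them was possible, and all 95% intervals cover counting error only.

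The cells were chosen by their own transcripts. A cell with at least 2000 UMIs was selected on Gad1 and Gad2 (together at least 5 UMIs, at least 3 per 10000 of the cell's UMIs, and more than the glutamate transporters Slc17a7 and Slc17a6), on at least 1 UMI of Lhx6, on Pvalb (at least 5 UMIs and at least 2 per 10000) and on Sst below 10 per 10000. This rule kept 194 of 31097 deposited cells: 102 of 15912 control cells and 92 of 15185 tomatidine cells. The genes used by the rule describe the selection and are not findings. The rule uses no clusters and no doublet caller, and a cell that also holds RNA of another cell can pass it.

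Parvalbumin interneurons are inhibitory neurons that fire fast, brief spikes onto the cell bodies, proximal dendrites or axon initial segments of pyramidal cells and pace gamma and ripple rhythms of the hippocampus. They arise in the medial ganglionic eminence under Nkx2-1 and Lhx6, as somatostatin interneurons do, whereas a further large group of interneurons comes from the caudal ganglionic eminence (CGE). Fast spiking rests on Kv3 potassium channels and a high supply of ATP, fast release on calcium sensors at the terminal such as Syt2, and many of these cells carry a perineuronal net built on aggrecan.

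Pvalb, which encodes the calcium buffer parvalbumin (ENSMUSG00000005716), spans chr15:78191114-78206400 (mm10, minus strand). Its median was 24.3 UMIs per 10000 in control cells and 20.6 in tomatidine cells. The lowest cells inside the rule had 2.02 and 2.91 per 10000. The highest cells outside it with low Sst had 17.9 and 11.8 per 10000, in which Pvalb missed the minimum of 5 UMIs. A further 37 control and 26 tomatidine cells passed the Pvalb minimums but had 10 or more Sst UMIs per 10000 and were counted as somatostatin interneurons. The plot of Pvalb against Sst shows both limits.

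**Figure D1:**
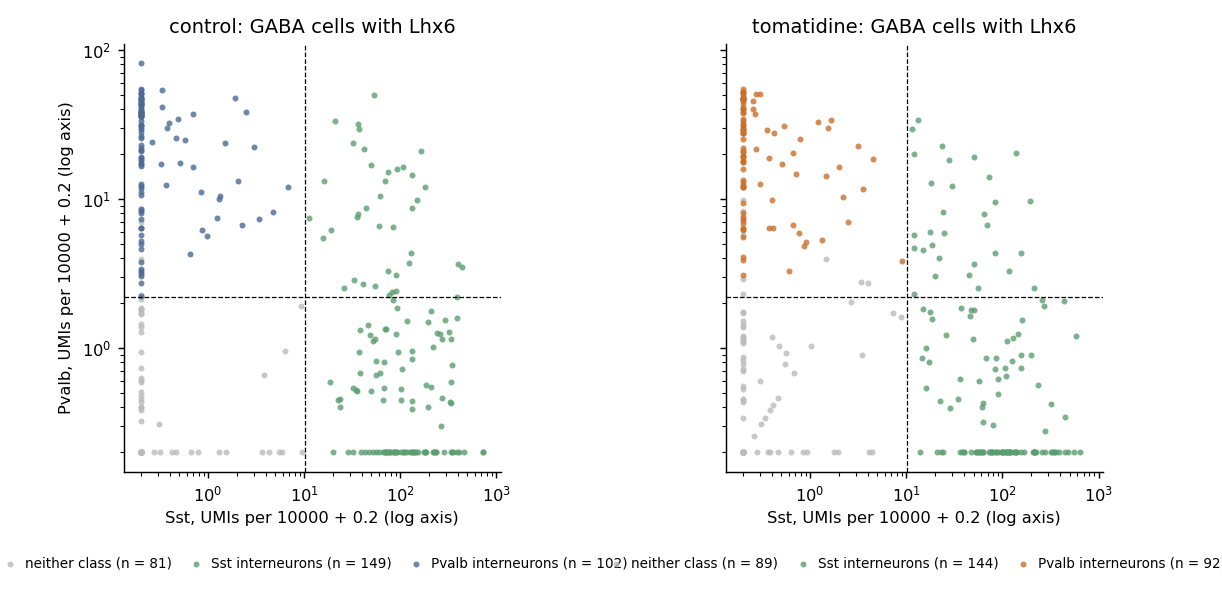
Each point is a GABA cell with at least 1 Lhx6 UMI, with Sst on the x axis and Pvalb on the y axis, both in UMIs per 10000 plus 0.2 on log axes, for the control library (left) and the tomatidine library (right), with the limits of the rule as dashed lines. The 102 control and 92 tomatidine parvalbumin interneurons fill the upper left corner and 37 and 26 cells lie above both limits.

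The label was checked on genes that the rule did not use. Slc32a1, the vesicular GABA transporter, had a UMI in 100% of control and 97.8% of tomatidine cells, at 953 and 981 CPM (counts per 1000000 UMIs of the class), against 7.51% and 9.17% of oligodendrocytes. Erbb4, a neuregulin receptor of interneurons, had a UMI in 97.1% and 100% of them and in 30.7% and 30.3% of oligodendrocytes. Neither gene is particular to these cells: Erbb4 had a UMI in 63.1% and 61.1% of somatostatin and in 82.9% and 69.5% of CGE interneurons, and Slc32a1 in at least 97.2% of both classes. Nkx2-1, which specifies the lineage in the embryo, was low, at 5.09 CPM in control cells and 0 UMIs in tomatidine cells. It is 1 of 12 listed genes of other GABA neuron regions, which summed to 118 CPM in control and 80.2 CPM in tomatidine cells. Of these 12, 1 was at 0 UMIs in control and 5 in tomatidine cells. Whether some selected cells come from other regions was not tested. As a background level for Pvalb, on which the cells were chosen, oligodendrocytes had a Pvalb UMI in 13.2% of 2105 control and 18.3% of 1548 tomatidine cells, at 24.4 and 39.4 CPM, beside 3045 and 3023 CPM in parvalbumin interneurons, a difference that the choice of cells fixes. Oligodendrocytes were shallower, with medians of 6592 and 6179 UMIs per cell.

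Parvalbumin interneurons were deeply sampled, with a median of 49185 UMIs and 7924 genes per control cell and 47144.5 UMIs and 8136 genes per tomatidine cell, and the class summed to 6091734 and 5623763 UMIs. The medians of somatostatin interneurons, the comparison class that shares their origin, were 38414 and 30171 UMIs, and those of CGE interneurons 26038 and 19551. More than 6000 genes were found in 72.5% and 68.5% of the cells, so that an upper limit of 6000 genes, which the study's quality control names, leaves 28 control and 29 tomatidine cells when joined to its other filters. Mitochondrial UMIs made up a median of 0.602% and 0.637%. UMIs of Y-linked genes (at least 2) were found in 86 of 102 control and 77 of 92 tomatidine cells. The libraries shared 292 cell barcodes, and 0 of these marked a parvalbumin interneuron in both.

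Parvalbumin interneurons were 0.730% of control cells with at least 2000 UMIs (exact binomial interval 0.596 to 0.885) and 0.686% of tomatidine cells (0.554 to 0.841). A difference of -0.0437 percentage points (Newcombe interval -0.244 to 0.157) is within counting error. Among GABA cells with Lhx6 the shares were 30.7% of 332 and 28.3% of 325 cells, again with an interval of the difference (-9.34 to 4.55 points) that spans 0. Among all GABA cells the shares were 9.50% of 1074 and 6.80% of 1352 cells, which differ by -2.69 points (-4.95 to -0.512). The GABA cells differed in makeup between the libraries, with a UMI of Gata3 or Tal1, transcription factors of midbrain and thalamic GABA neurons, in 165 control and 618 tomatidine cells. Without those cells, a setting chosen after seeing the data, the shares were 11.1% of 909 and 11.9% of 734 cells, and the difference was 0.74 points (-2.34 to 3.9), of the other sign and with an interval that spans 0. With the study's filters and the limit of 6000 genes the difference was -1.59 points (-4.44 to 0.997), and among cells with few markers of other cell types, a setting chosen after seeing the data, it was -5.43 points (-9.17 to -1.82).

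To show where these cells differ from other interneurons, they were compared within each library with somatostatin interneurons (149 control and 144 tomatidine cells: the same gate with Sst at 10 or more per 10000) and with CGE interneurons (164 and 213 cells: GABA cells with Adarb2 and no Lhx6 UMI). A gene was called when it differed at least 3-fold in the same direction in both libraries, among genes with at least 100 UMIs and outside the rule. Over somatostatin interneurons, 88 of 11001 genes were higher (0.8%) and 170 lower (1.55%). Over CGE interneurons, 138 of 11143 were higher (1.24%) and 398 lower (3.57%). Of the genes called higher, 54 were shared, which is 61.4% of the first list and 39.1% of the second. The CGE gate was not pure: 36 control and 79 tomatidine cells of it had a UMI of Gata3 or Tal1, against 1 and 5 parvalbumin interneurons. Without those cells, a setting chosen after seeing the data, the second list had 200 genes and kept 128 of the 138. The study's filters of cells left 53 genes higher than in somatostatin interneurons and kept 27 of the 54 shared genes. With the limit of 6000 genes added 4 of the 54 were kept, and among cells with few markers of other cell types, chosen after seeing the data, 40.

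Among the 10 genes with the highest ratios over somatostatin interneurons were Pdlim3, Kcng4, Tll1, Zbtb7c, Adamtsl5, Spp1, Pde11a, Pthlh and Adamts15. Spp1 had 70.0% and 62.8% of its UMIs in 1 cell, and Pdlim3 had 30.6% and 47.0%. The 10 lowest were Layn, Hpse, AW551984, Ror2, Chrnb3, Lama4, Npas1, Chodl, Vgll3 and Chrna2. Layn, a hyaluronan receptor, had log2 ratios of -6.38 (-8.01 to -5.15) and -7.14 (-10.19 to -5.27), the last on 2 UMIs. Over CGE interneurons the 10 highest were Akr1c18, Nxph2, Crhbp, Cartpt, Cav3, Adamts8, Sox6, Nek7, Alkal2 and Cort. Crhbp, which binds corticotropin-releasing hormone, had 382 and 585 CPM against 5.92 and 7.30 CPM. The 10 lowest were Krt73, Vip, Tac2, Npas1, Sp8, Tal1, Gata3, Cnr1, Syt6 and Htr3a. Vip, the peptide of a large CGE class, had log2 ratios of -10.20 and -8.16.

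At the synapse and the membrane, Syt2, the fast calcium sensor of release, reached 416 CPM in control parvalbumin interneurons against 70.6 in somatostatin and 27.8 in CGE interneurons. In the tomatidine library it stood at 497 CPM against 52.3 and 128 CPM. The log2 ratio over somatostatin interneurons was 2.56 (2.42 to 2.70) in the control and 3.25 (3.08 to 3.42) in the tomatidine library. Over CGE interneurons the ratios ran the other way, at 3.905 (3.688 to 4.129) and 1.962 (1.85 to 2.075). In neither comparison do the intervals of the libraries meet, and they cover counting error only. The CGE class itself differed in makeup, with a Gata3 or Tal1 UMI in 36 of 164 control and 79 of 213 tomatidine cells. The part of this in the Syt2 ratios over CGE interneurons was not tested. Gabrd, the delta subunit of extrasynaptic GABA-A receptors, was 221 and 206 CPM against 45.8 and 42.6 CPM in somatostatin interneurons, a log2 ratio of 2.27 in each library. Kcng4, a silent modifier subunit of Kv2 channels, was 77.7 and 82.3 CPM against 5.82 and 1.15 CPM, and Kcnip2, a Kv4 partner, 291 and 238 CPM against 51.9 and 56.9 CPM.

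Of a list of 24 fast-spiking channel genes, 16 were higher than in somatostatin interneurons in both libraries and 7 lower. Of all 11001 genes tested, 3829 were higher and 4652 lower in both. The list had median log2 ratios of 0.50 and 0.66, against -0.00 and -0.06 over all genes tested. Among the channel genes past the 3-fold rule were Kcng4 and Kcnab3 on the higher side and Kcnc4 on the lower side. Of all genes tested, 0.8% and 1.55% were called higher and lower. Kcnab3, a potassium channel beta subunit, had 331 and 372 CPM against 104 and 108 CPM. Kcnc1 missed the rule, at 1139 and 1225 CPM against 406 and 407 CPM, log2 ratios of 1.49 and 1.59. Kcna1, a low-threshold axonal potassium channel, had log2 ratios of 1.32 and 1.84 and missed it too. Over CGE interneurons, 17 of the 24 were higher in both libraries, with medians of 1.24 and 0.98, beside 3258 of 11143 genes and medians of -0.12 and -0.16 over all genes tested. There Kcns3 and Kcng4 were called higher, and Kcnc4, Hcn4, Kcnq5 and Scn3a lower, where 1.24% and 3.57% of all genes were.

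Among the release genes, Syt2 was called higher over both classes and Cplx2 lower over both, at 71.4 and 83.8 CPM against 302 and 377 CPM in somatostatin interneurons. Its partner complexin, Cplx1, stood at 2954 and 3011 CPM against 1840 and 1601 CPM. Unc13c was also lower than in somatostatin and Sv2c lower than in CGE interneurons. The list median was 0.06 in each library over somatostatin interneurons, beside -0.00 and -0.06 over all genes.

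Outside the cell, the proteoglycan gene Acan, the core of the perineuronal net, was 59.8 and 78.4 CPM against 19.0 and 7.54 CPM in somatostatin interneurons. The log2 ratios were 1.66 (1.37 to 1.95) and 3.38 (2.94 to 3.85). Over CGE interneurons, at 2.275 and 15.5 CPM, the ratios of Acan ran the other way, at 4.715 (3.974 to 5.567) and 2.338 (2.024 to 2.663). The makeup of the CGE class differed between the libraries, and its part in these ratios was not tested. Acan was the 1 of 10 measured net genes called over each class, against 0.8% and 1.24% of all genes tested. Tnc was lower than in CGE interneurons. The secreted proteases Adamts15 and Adamts8, which cleave proteoglycans, and the related Adamtsl5 and Tll1 were also among the 54 shared genes. Adamts15 had 46.6 and 63.0 CPM against 3.93 and 6.89 CPM in somatostatin interneurons. The neurotrophin gene Ntf3 was in the shared list as well and low throughout, at 10.2 and 8.18 CPM against 2.44 and 1.15 CPM in somatostatin interneurons.

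**Figure D2:**
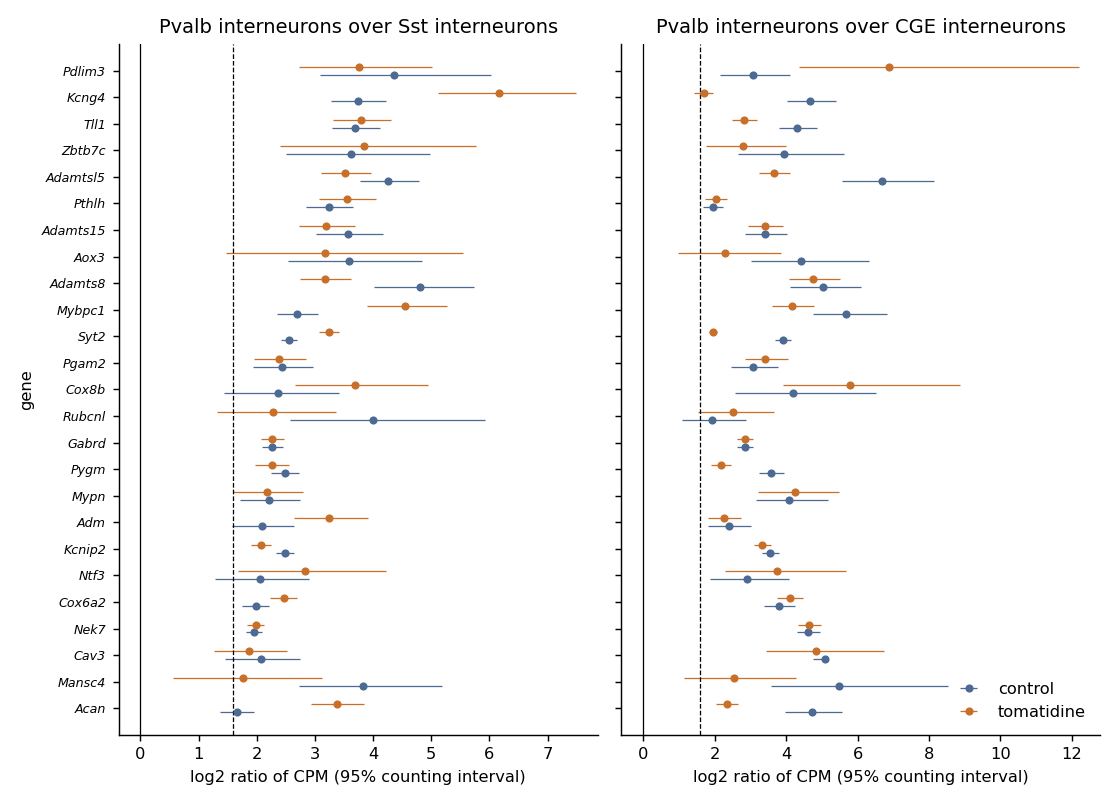
Log2 ratios of CPM in parvalbumin interneurons over somatostatin (left) and CGE interneurons (right) for 25 of the 54 genes called higher over both, with 95% counting intervals, for the control and the tomatidine library, a dashed line at 3-fold, and Cav3 in control CGE interneurons (0 UMIs) drawn at a floor of 3 UMIs with no upper bar. Syt2, Gabrd and Nek7 have narrow bars in both panels, and Pdlim3, Mansc4 and Rubcnl wide ones.

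Several of the 54 genes are best known from skeletal muscle. This group was put together after its values were seen, with no fixed list. Whether such genes are more common among the 54 than among all genes was not tested. Cox6a2 and Cox8b encode heart and muscle forms of cytochrome c oxidase subunits, Pygm the muscle glycogen phosphorylase, Pgam2 the muscle phosphoglycerate mutase, Cav3 muscle caveolin, Mypn the Z-disc protein myopalladin and Mybpc1 a myosin binding protein. Cox6a2 had 110 and 169 CPM in parvalbumin interneurons, found in 78.4% and 88.0% of cells, against 27.9 and 30.7 CPM in somatostatin and 7.89 and 9.89 CPM in CGE interneurons. Pygm had 137 and 95.7 CPM, log2 ratios of 2.48 and 2.26 over somatostatin interneurons. The others were sparse: Mybpc1 had 70.1 and 76.5 CPM, Pgam2 29.4 and 43.7, Mypn 25.8 and 22.9, Cav3 15.4 and 17.4, and Cox8b 8.37 and 16.9 CPM. Pgam2 drew 22.9% and 28.5% of its UMIs from 1 cell, and the highest cell gave no more than 17.9% for the other 6 genes.

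Promoters of Pvalb, of Syt2 and of 4 of these muscle genes are shown, the last 5 chosen after a motif match was seen in them. RefSeq promoters (GRCm38.p6, 250 bases before to 50 after each start site) were found for 41 of 55 genes, the 54 shared ones and Pvalb, with 60 start sites in all. Both strands were searched for 4 motifs chosen after the genes were known. The E-box CAGCTG, a site of basic helix-loop-helix factors, was present for 17 of 41 genes (41.5%) against 18.3% of all 27025 genes, and in 20 of 60 windows (33.3%) against 16.3% of all 32851. The estrogen-related receptor core AAGGTCA was present for 5 of 41 genes (12.2%) against 5.38%, and TATAAA for 8 of 41 (19.5%) against 15.7%. The full estrogen-related receptor site TCAAGGTCA, which contains the core, was found for Syt2 alone among the 41 (0.466% of all genes). A match is a description of the letters and not a bound site. The windows run 5′ to 3′ on the gene's strand, with CAGCTG and AAGGTCA (or its complement TGACCTT) in capitals. They are Pvalb (chr15:78206351-78206650, minus strand), in which none of the 4 motifs was found, Syt2 (chr1:134646362-134646661, plus), Pygm (chr19:6384158-6384457, plus), Pgam2 (chr11:5803747-5804046, minus), Cox8b (chr7:140900397-140900696, minus) and Cav3 (chr6:112459255-112459554, plus). Of the muscle genes not shown, Mybpc1 had CAGCTG, and Mypn had neither CAGCTG nor AAGGTCA. The Cox8b matches begin 19 bases before and at base 17 after the start, and those of Pygm 168 and 8 bases before it.
Pvalb: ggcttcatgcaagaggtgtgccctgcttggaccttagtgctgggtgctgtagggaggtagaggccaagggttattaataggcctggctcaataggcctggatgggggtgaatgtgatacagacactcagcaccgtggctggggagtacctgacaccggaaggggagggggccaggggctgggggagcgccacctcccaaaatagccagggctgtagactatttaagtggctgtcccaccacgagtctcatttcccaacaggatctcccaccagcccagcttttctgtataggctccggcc
Syt2: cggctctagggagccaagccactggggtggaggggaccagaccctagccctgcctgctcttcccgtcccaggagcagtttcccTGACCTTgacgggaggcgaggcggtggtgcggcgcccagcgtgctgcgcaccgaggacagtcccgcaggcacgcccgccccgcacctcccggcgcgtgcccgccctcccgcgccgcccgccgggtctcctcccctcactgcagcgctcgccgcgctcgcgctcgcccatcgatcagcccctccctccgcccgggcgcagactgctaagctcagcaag
Pygm: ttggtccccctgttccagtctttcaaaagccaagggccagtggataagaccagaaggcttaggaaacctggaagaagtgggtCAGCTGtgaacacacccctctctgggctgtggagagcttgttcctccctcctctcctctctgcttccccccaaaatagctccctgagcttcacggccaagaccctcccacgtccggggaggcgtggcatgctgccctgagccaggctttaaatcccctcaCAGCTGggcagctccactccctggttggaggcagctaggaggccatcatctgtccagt
Pgam2: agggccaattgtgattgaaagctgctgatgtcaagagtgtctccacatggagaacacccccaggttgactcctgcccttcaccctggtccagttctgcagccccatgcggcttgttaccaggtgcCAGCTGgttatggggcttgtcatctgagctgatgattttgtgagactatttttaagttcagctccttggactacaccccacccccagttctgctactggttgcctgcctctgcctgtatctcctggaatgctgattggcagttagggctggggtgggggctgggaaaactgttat
Cox8b: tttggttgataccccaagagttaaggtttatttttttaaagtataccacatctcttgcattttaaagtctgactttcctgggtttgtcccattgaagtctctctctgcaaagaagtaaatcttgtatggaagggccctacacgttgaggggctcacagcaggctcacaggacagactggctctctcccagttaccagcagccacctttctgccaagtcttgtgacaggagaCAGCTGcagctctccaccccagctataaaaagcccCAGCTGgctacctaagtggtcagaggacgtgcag
Cav3: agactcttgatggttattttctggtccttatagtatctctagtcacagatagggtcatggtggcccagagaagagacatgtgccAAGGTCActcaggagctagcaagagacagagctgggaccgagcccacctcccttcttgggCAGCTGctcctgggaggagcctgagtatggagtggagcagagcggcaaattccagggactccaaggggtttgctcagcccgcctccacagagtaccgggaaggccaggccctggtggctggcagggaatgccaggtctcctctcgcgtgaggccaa

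Beside Cox6a2 and Cox8b, which passed 3-fold and are not in the list, genes of the respiratory chain had ratios under 3-fold. The chain makes most of a neuron's ATP. Of 41 measured nuclear genes of the chain, 40 were higher than in somatostatin interneurons in both libraries and 0 lower in both, with median log2 ratios of 0.40 and 0.45. Against CGE interneurons all 41 were higher in both, with medians of 0.46 and 0.46. Over all genes tested, 3829 of 11001 were higher and 4652 lower in both libraries against somatostatin interneurons, and 3258 of 11143 higher and 6048 lower against CGE interneurons. Uqcrc1, a core subunit of complex III, had 899 and 900 CPM against 706 and 641 CPM in somatostatin and 647 and 626 CPM in CGE interneurons. Cox5a, of complex IV, had 470 and 455 CPM against 369 and 334 and against 297 and 288 CPM. All 13 mitochondrially encoded subunits were also higher in both libraries over each class, with medians of 0.55 and 0.74 over somatostatin and 0.52 and 0.59 over CGE interneurons. Markers of other cells differed too. All 7 oligodendrocyte markers were lower in both libraries, with medians of -0.71 and -1.71 over somatostatin and -0.83 and -1.93 over CGE interneurons. All 6 microglia markers were lower over each class, and 6 of 8 excitatory neuron markers were higher. The part of such RNA in these ratios was not tested.

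Median depth also differed between the classes. Among cells with at least 20000 UMIs, a setting chosen after seeing the data, the nuclear medians were 0.40 and 0.42 over somatostatin and 0.42 and 0.39 over CGE interneurons. Ppargc1a, the coactivator of mitochondrial genes, had 104 and 94.1 CPM against 66.0 and 60.5 CPM in somatostatin interneurons and 33.4 and 40.2 CPM in CGE interneurons. Of the nuclear receptors that work with it, Esrrg had 248 and 263 CPM against 91.0 and 87.4 CPM in somatostatin and 64.0 and 86.9 CPM in CGE interneurons, and passed 3-fold against the CGE class. Esrrb was sparse (11.7 and 11.4 CPM) and passed 3-fold against the somatostatin class. Of the antioxidant genes, 7 of 19 were higher and 9 lower than in somatostatin interneurons in both libraries, with medians of 0.06 and -0.15, shares near those over all genes tested.

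**Figure D3:**
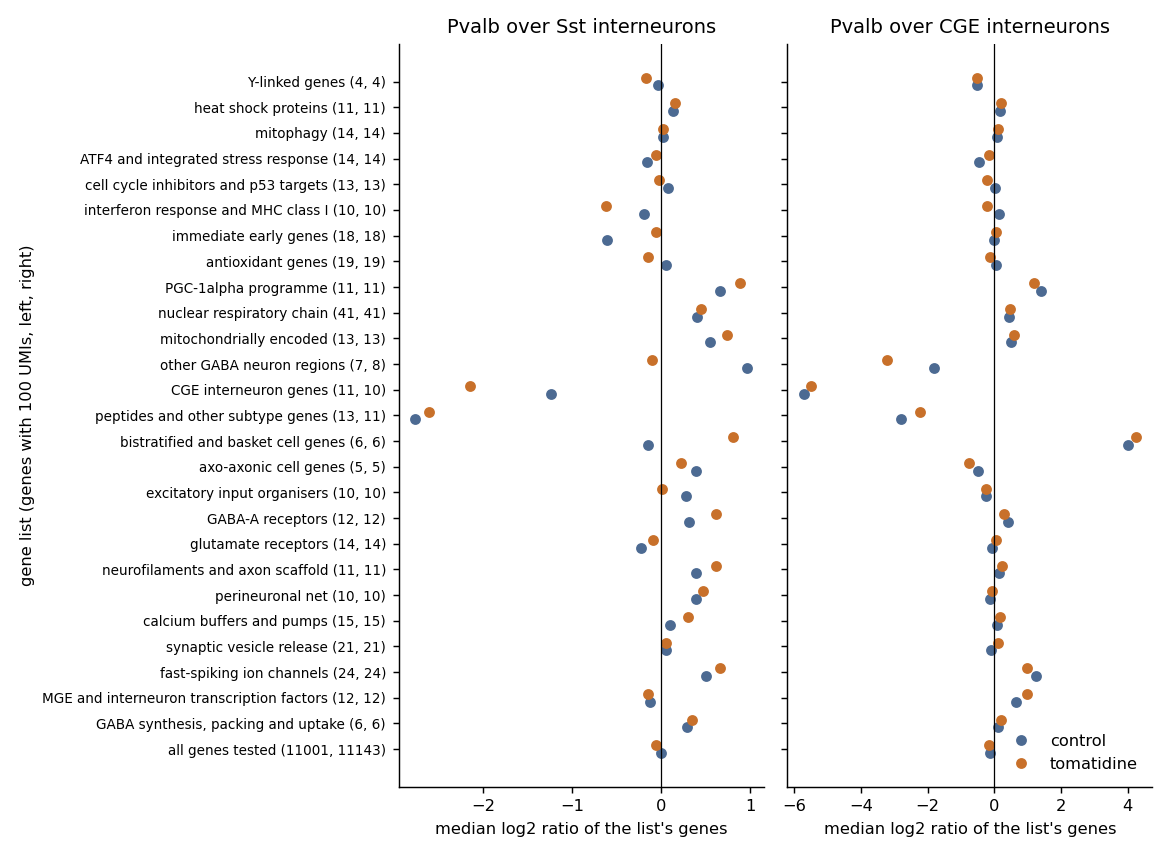
Median log2 ratio of each gene list in parvalbumin interneurons over somatostatin (left) and CGE interneurons (right), for the control and the tomatidine library, with the numbers of genes of at least 100 UMIs behind the left and right panel in parentheses. Respiratory chain lists lie between 0.40 and 0.74 in both panels, and subtype peptides and CGE genes far below 0.

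On the lower side, 96 genes were shared, which is 56.5% of the 170 and 24.1% of the 398. With the study's filters of cells 55 were shared, which kept 46 of the 96. With the limit of 6000 genes added 21 were shared, which kept 15. Without cells rich in glutamate transporters there were 159, and with Pvalb of at least 5 per 10000 147. Of 13 measured subtype peptide genes 7 were called lower and 1, Cck, higher than in somatostatin interneurons, against 1.55% and 0.8% of all genes tested. All 10 measured CGE genes were called lower than in CGE interneurons, against 3.57% of all genes. The list holds markers of the class that Adarb2 chose for comparison, so this count describes that choice and is not a finding. Npy, a neuropeptide, had 118 and 175 CPM against 3330 and 2459 CPM in somatostatin interneurons. Reln, a secreted matrix protein, had 9.19 and 23.1 CPM against 514 and 460 CPM. Cnr1, the cannabinoid receptor that marks cholecystokinin basket cells, had 56.5 and 39.8 CPM against 206 and 251 CPM in somatostatin and 4500 and 2654 CPM in CGE interneurons. Calb2, calretinin, had 19.0 and 18.5 CPM against 94.0 and 113 CPM and against 290 and 233 CPM. Chrna2, a nicotinic receptor subunit of oriens-lacunosum moleculare cells, had 0 UMIs in parvalbumin interneurons of both libraries and 83 and 120 UMIs in somatostatin interneurons. With 0 set to a floor of 3 UMIs per library, its log2 ratios were -4.51 and -5.21, with limits nearest 0 of -4.18 and -4.88 from counting error. Chrnb3 and Chodl were likewise at 0 UMIs in both libraries.

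The kainate receptor gene Grik1 had 38.1 and 58.0 CPM against 195 and 248 CPM in somatostatin interneurons. Of 14 glutamate receptor genes, 11 were lower in both libraries than in somatostatin interneurons, and Gria4, the fast AMPA subunit, was not among them at 480 and 458 against 360 and 325 CPM. Over all genes tested, 4652 of 11001 were lower in both. Against CGE interneurons 6 of the 14 were lower and 4 higher in both libraries, shares near those of all genes tested (6048 lower and 3258 higher of 11143). Gabrg1, a GABA-A receptor subunit, was called lower over both classes. Among transcription factors, 0 of 12 were called higher or lower than in somatostatin interneurons, where 0.8% and 1.55% of all genes tested were. Over CGE interneurons Sox6 (58.1 and 49.8 against 2.12 and 1.98 CPM) and Mef2c were among the genes called higher. Satb1 was lower than in somatostatin interneurons, with log2 ratios of -1.01 and -0.75.

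Within parvalbumin interneurons, subtype genes were counted as present with at least 2 UMIs and at least 1 per 10000. Tac1, the tachykinin gene found in basket and bistratified cells, was present in 42 of 102 control (41.2%) and 38 of 92 tomatidine cells (41.3%). Cck was present in 48.0% and 51.1%, at 220 and 236 CPM against 1535 and 1105 CPM in CGE interneurons, and Pthlh, a parathyroid hormone-like peptide gene, in 24.5% and 26.1%. Npy was present in 18.6% and 14.1%, and Calb1, calbindin, in 13.7% and 13.0%. In oligodendrocytes, Tac1 was present in 0.332% and 0.646%, Cck in 5.65% and 5.04%, Pthlh in 0.0475% and 0.0646%, Npy in 1.09% and 1.29% and Calb1 in 1.76% and 1.61%. None of the intervals of these 5 differences between libraries excluded 0.

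Unc5b and C1ql1, genes known from axo-axonic (chandelier) cells, were rare. Unc5b was present in 9 of 102 control and 9 of 92 tomatidine cells, but also in 68.7% and 68.7% of oligodendrocytes. Tac1 was present in 0 of 9 and 0 of 9 of the Unc5b-positive cells, against 42 of 93 and 38 of 83 of the others. C1ql1 was present in 3 of 9 and 8 of 9, against 1 of 93 and 2 of 83, and Pthlh in 5 of 9 and 8 of 9, against 20 of 93 and 16 of 83. The control intervals for Pthlh overlap (21.2 to 86.3% and 13.7 to 31.2%), and none of these differences was tested. Median depth was lower in the Unc5b-positive cells, at 39647 against 51149 UMIs in the control and 20614 against 49726 in the tomatidine library.

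Akr1c18, a hydroxysteroid dehydrogenase that inactivates progesterone, was present in 25 of 102 control (24.5%) and 12 of 92 tomatidine cells (13.0%), which is -11.5 points apart (-22.1 to -0.335). Its level was 181 CPM in the control and 94.6 CPM in the tomatidine library, a log2 ratio of -0.94 (-1.09 to -0.79), and it was near 0 in CGE interneurons, with 3 and 0 UMIs. Cells with Akr1c18 were deep, with medians of 103759 and 111619 UMIs against 35993 and 43831 in the others. Thinned to 5000 UMIs a cell, which left out 3 cells in each library, the shares were 12.6% and 6.24%. C1ql1 was present in 3.92% and 10.9%, a difference of 6.95 points (-0.565 to 15.3), and Nos1 in 5.88% and 10.9%, a difference of 4.99 points (-3.02 to 13.6). Oligodendrocytes held Akr1c18 in 0% of cells of both libraries, C1ql1 in 2.00% and 1.68%, and Nos1 in 0.190% and 0.775%.

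**Figure D4:**
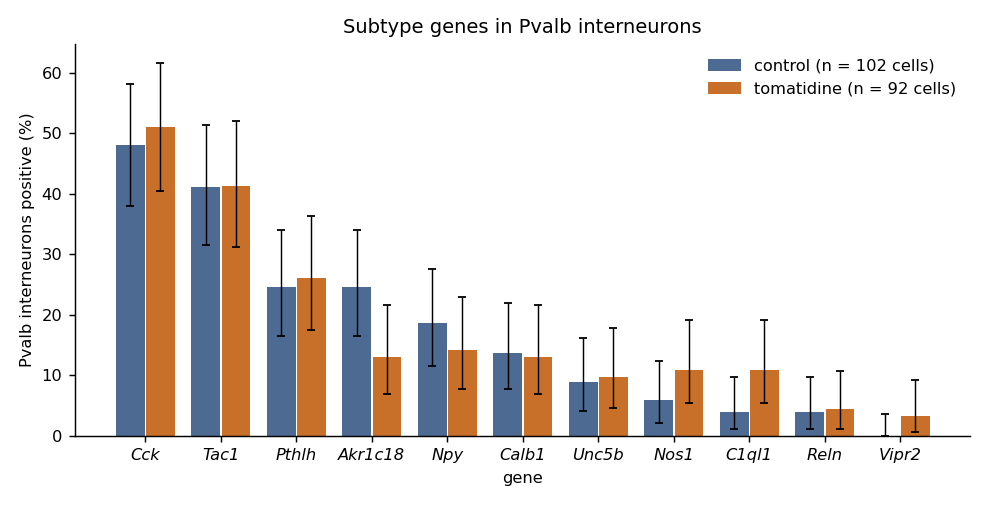
Share of parvalbumin interneurons with each subtype gene (at least 2 UMIs and 1 per 10000) in the control (102 cells) and tomatidine library (92 cells), with exact binomial 95% intervals. Bars of the 2 libraries overlap in their intervals for all 11 genes, and Akr1c18 stands at 24.5% and 13.0%.

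From cell to cell, Pvalb ranged from 2.02 to 80.9 per 10000 in the control and 2.91 to 54.0 in the tomatidine library. Its rank correlation over 102 and 92 cells was taken as a description with 8183 genes of at least 1 UMI per cell on average, and cells of 1 library share its preparation. The correlation of Pvalb with the UMI total itself was 0.34 and 0.33, and 90% of genes lay between -0.27 and 0.36 in the control and -0.34 and 0.38 in the tomatidine library. Cplx1, the complexin of fast release, had the most similar pattern, with rho of 0.84 and 0.80. Vamp1, a synaptobrevin, followed at 0.79 and 0.76, then Ldhb, a lactate dehydrogenase subunit (0.76 and 0.76), and Snap25, a SNARE protein (0.75 and 0.73). Given the UMI total, the partial rho of these 4 genes stayed between 0.69 and 0.83.

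Also among the 10 highest were Ndrg4, Ghitm, Eno2, Sult4a1 and Cend1, of which Ghitm belongs to the mitochondrial inner membrane and Eno2 is neuronal enolase. Nefh, the heavy neurofilament, had rho of 0.69 and 0.62, and Syt2 of 0.62 and 0.67. The median rho of the 41 nuclear respiratory chain genes was 0.42 and 0.45 and that of 20 fast-spiking channel genes 0.39 and 0.47, against 0.02 and -0.00 over all genes. Markers of other cells had medians below 0, at -0.24 and -0.41 for excitatory neurons, -0.29 and -0.20 for astrocytes and -0.26 and -0.075 for oligodendrocytes, so cells with less Pvalb tended to hold more of this RNA. Its part in these correlations was not tested. At the other end were Gpm6a, a membrane glycoprotein of outgrowing processes (-0.53 and -0.65), the transcription factor Zeb2 (-0.56 and -0.53), Aplp1, Psd and Agrn. Tac1, in contrast, had rho of -0.073 and 0.010.

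Between the diets, most genes of parvalbumin interneurons had close levels. Over 9747 genes with at least 100 UMIs, the log2 ratio of tomatidine over control had a median of -0.00, and 90% of genes lay between -0.34 and 0.33. Past 1.5-fold were 97 genes higher (0.995%) and 154 lower (1.58%) with tomatidine. The rule's own genes, whose levels the choice of cells limits, are given for reference only. Pvalb stood at 3045 and 3023 CPM in control and tomatidine, Gad1, the main GABA-synthesizing enzyme, at 3007 and 3288, Gad2 at 539 and 531, and Lhx6 at 179 and 166 CPM. In somatostatin interneurons 230 of 10206 genes were past 1.5-fold higher and 88 lower, and in CGE interneurons 372 and 167 of 10410. The CGE class held a Gata3 or Tal1 UMI in 36 of 164 control and 79 of 213 tomatidine cells. Its ratios between the diets therefore compare unlike mixes of cells. A difference in how the libraries were made cannot be told apart from the diet.

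The study's question concerns senescence, for which Cdkn1a and Cdkn2a are the usual marker genes. Cdkn1a, the gene of p21, had 21 UMIs in control and 9 in tomatidine cells, 3.45 and 1.60 CPM, in 16.7% and 6.52% of the cells. The log2 ratio of -1.11 had an interval of -2.42 to 0.08 that includes 0. Without the highest cell of each library it was -1.55 (-3.16 to -0.17), and with the study's filters and the limit of 6000 genes 0.0546. The highest cells held 2 of the 21 control and 3 of the 9 tomatidine UMIs. Their removal therefore took a larger part of the tomatidine sum, which by itself lowers the ratio. Oligodendrocytes had a Cdkn1a UMI in 5.80% and 4.85% of cells. Cdkn2a, the gene of p16, had 0 UMIs in the 102 control cells, where a count of 0 allows up to 3 UMIs, and 1 UMI in the tomatidine cells. For 13 measured cell cycle inhibitor and p53 target genes the median was -0.09 (2 higher and 11 lower), and 0 passed 1.5-fold among the 12 with at least 100 UMIs. Over all genes, 5745 of 11715 were higher, and 0.995% and 1.58% passed 1.5-fold higher and lower. Cdkn1a was lower in parvalbumin than in CGE interneurons in both libraries, 3.45 and 1.60 against 18.2 and 13.4 CPM. Its log2 ratio of tomatidine over control was 0.28 (-0.30 to 0.85) in somatostatin and -0.44 (-0.86 to -0.03) in CGE interneurons.

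The fast-spiking genes differed little between the diets. Of 24 channels, 16 were higher and 8 lower with tomatidine, with a median log2 ratio of 0.10. Of 11 neurofilament and axon scaffold genes 9 were higher, with a median of 0.16. Beside these and the lists below, 5745 of all 11715 genes were higher, and 0.995% and 1.58% passed 1.5-fold higher and lower. The scaffold median was 0.045 with the study's filters of cells, 0.057 with the limit of 6000 genes added and 0.074 with cells thinned to 5000 UMIs. Scn4b, the sodium channel beta4 subunit of resurgent current, was the 1 channel past 1.5-fold, at 94.7 and 152 CPM (0.68, 0.53 to 0.84). Nefm, a neurofilament, had 229 and 330 CPM (0.52), and Acan 59.8 and 78.4 CPM (0.39, 0.19 to 0.60). In the same comparison Scn4b was lower in somatostatin interneurons (-0.82) and higher in CGE interneurons (2.55). The CGE class differed in makeup between the libraries, and its Pvalb sum was 768 control and 2623 tomatidine UMIs. The part of this makeup in the CGE ratio of Scn4b was not tested. Of 11 net genes, 8 were higher, with a median of 0.07, and the 1 past 1.5-fold was lower, Hapln2, a link protein of myelinated fibres (95 and 45 UMIs, -0.96, -1.51 to -0.44). Calb1 was the 1 calcium buffer past 1.5-fold, lower at 93.6 and 47.7 CPM (-0.97, -1.19 to -0.76).

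Of 41 nuclear respiratory chain genes, 13 were higher and 28 lower with tomatidine, with a median of -0.02 and a range from Ndufa9 (-0.34) to Ndufb3 (0.25). Of the 13 mitochondrial genes, 12 were higher, with a median of 0.15, which became -0.02 when each cell was thinned to 5000 UMIs. The antioxidant list had 15 of 19 genes lower, a median of -0.10 and Nqo1 as its lowest member (6.24 and 3.56 CPM, -0.81, -1.67 to 0.01). The interferon response and MHC class I list had 10 of 11 lower and a median of -0.33, which was -0.16 over its 7 genes with at least 100 UMIs, of which 0 passed 1.5-fold. Its lowest member, Bst2, rested on 17 and 6 UMIs. For comparison, 5745 of all 11715 genes measured this way were higher and 5970 lower.

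Of the 54 genes that set parvalbumin interneurons apart from both other classes, 34 were higher and 20 lower with tomatidine, with a median of 0.12. Cox6a2 had 110 and 169 CPM (0.62, 0.48 to 0.77), Cox8b 8.37 and 16.9 CPM (1.01, 0.51 to 1.53), and the peptide gene Adm also passed 1.5-fold. Aox3 and Mansc4 passed it on the lower side, Aox3 on 79 and 25 UMIs, of which 1 tomatidine cell held 52.0% of the 25. These 3 higher and 2 lower genes are among 53 with at least 100 UMIs, and 0.995% and 1.58% of all genes tested passed 1.5-fold. Pygm had 137 and 95.7 CPM (-0.52, -0.68 to -0.36). In somatostatin and CGE interneurons the log2 ratios of Cox6a2 were 0.14 (-0.16 to 0.43) and 0.33 (-0.22 to 0.88), with intervals that include 0.

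Among the 8 highest ratios, Spp1, osteopontin, had 20 and 113 UMIs, of which 1 tomatidine cell held 62.8%, and the log2 ratio of 2.61 was 2.92 (1.68 to 4.45) without the highest cell of each library. Igf2, a growth factor of vessels and meninges, had 79 and 258 UMIs, of which 1 tomatidine cell held 81.4%, and its ratio of 1.82 was 1.45 (0.66 to 2.30) without those cells. The plot with and without the highest cell shows both genes still higher with tomatidine. Spread over more cells were Cd24a (22.0 and 57.8 CPM, 1.39, 1.10 to 1.69), found in 20.6% and 31.5% of cells, and Nos1, neuronal nitric oxide synthase (15.3 and 35.9 CPM, 1.23, 0.87 to 1.60), in 17.6% and 29.3%. The other 4 were F3 (1.43), Reln (1.33), Doc2g (1.25) and Tshz2 (1.18). With the study's filters of cells the ratios of Cd24a (-0.18), Igf2 (-0.89) and Reln (-0.62) had the other sign, as did that of Doc2g (-0.36) with the limit of 6000 genes. Egr4, an immediate early gene, had 26 and 53 UMIs (1.14), and of 18 immediate early genes 12 were higher, with a median of 0.12, beside 5745 of 11715 over all genes. In somatostatin interneurons 14 of 19 immediate early genes were lower, with a median of -0.48.

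The 8 lowest ratios were Klk6 (-4.74), Prkcd (-3.63), Ccn2 (-3.35), Ttr (-2.85), Apod (-2.75), Vtn (-2.50), Rgs5 (-2.47) and C4b (-2.41). For Ccn2, Vtn and Rgs5, 1 control cell held 92.2%, 95.9% and 93.8% of the UMIs, and without the highest cell of each library the ratios were 0.12, 1.82 and 0.92. For Prkcd, C4b, Klk6 and Apod, 1 control cell held 71.3%, 55.4%, 51.7% and 42.5%, and without the highest cells the ratios were -2.15, -1.53, -4.11 and -2.23. Klk6, a protease of oligodendrocytes, was found in 4.90% and 4.35% of cells, and Apod, a lipocalin of glia, in 70.6% and 64.1%. Ttr, the thyroid hormone carrier of choroid plexus, was found in 93.1% of control and 29.3% of tomatidine cells, and was also lower in somatostatin (-4.19) and CGE interneurons (-3.36). Without the highest cell of each library, 75 of the 97 and 119 of the 154 genes remained past 1.5-fold.

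**Figure D5:**
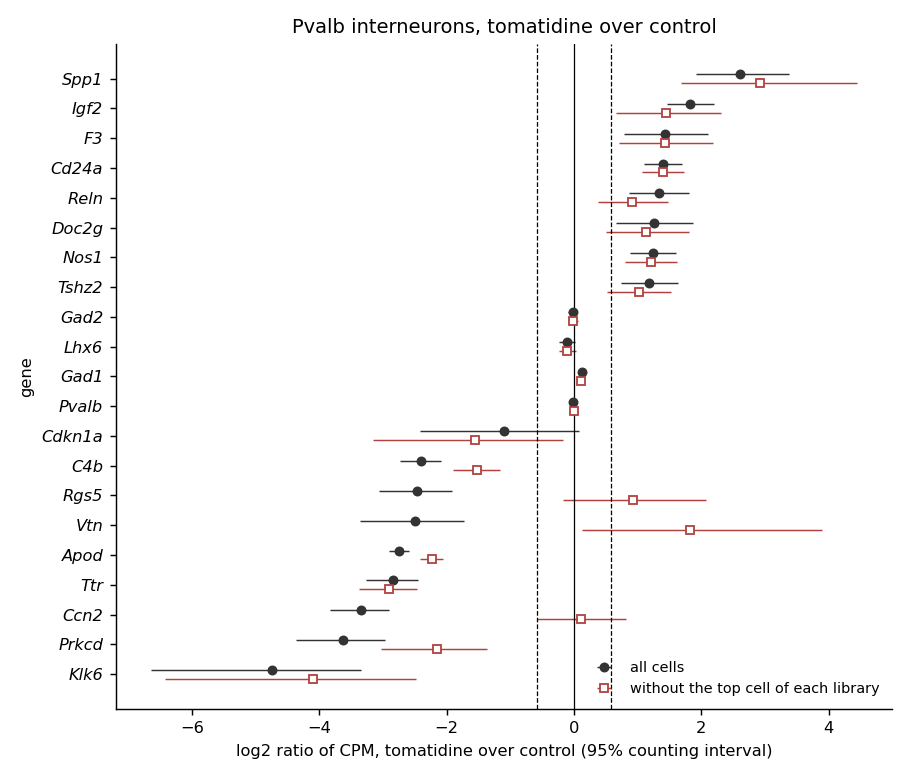
Log2 ratio of CPM, tomatidine over control, in parvalbumin interneurons for the 8 highest and 8 lowest genes and 5 further genes (Pvalb, Gad1, Gad2, Lhx6 and Cdkn1a), over all cells (filled circles) and without the cell with the most UMIs of the gene in each library (open squares), with 95% counting intervals and dashed lines at 1.5-fold. Ccn2, Vtn and Rgs5 cross from below -2 to above 0, and Pvalb, Gad1, Gad2 and Lhx6, on which the cells were chosen, lie near 0.

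Markers of other cells moved with these genes. The 7 oligodendrocyte markers all had lower levels with tomatidine (median -1.02), and their sum was 1439 and 677 CPM. No oligodendrocyte marker was at 0, and 1 control cell held 25.6% of their UMIs. The 6 measured endothelial and mural markers had a median of -2.27 and a sum of 69.4 and 16.0 CPM, led by Rgs5, with 91.5% of the control UMIs in 1 cell. Choroid plexus markers summed to 84.9 and 15.7 CPM, led by Ttr. Astrocyte markers summed to 905 and 853 CPM and excitatory neuron markers to 919 and 1030 CPM. Markers of oligodendrocyte precursors were higher with tomatidine in 5 of 5, with a sum of 56.1 and 76.6 CPM (0.45, 0.24 to 0.66), and those of microglia in 4 of 6, with a sum of 98.3 and 121 CPM (0.30, 0.14 to 0.46). These sums also rested on few cells. The highest control and tomatidine cell held 31.3% and 26.9% of the precursor UMIs, and 21.4% and 29.8% of the microglia UMIs. In the 75 control and 56 tomatidine cells with fewer than 20 UMIs per 10000 of every such marker list, a setting chosen after seeing the data that limits the markers themselves, Rgs5 included, F3 (-0.052), Ccn2 (0.14), Vtn (1.10), Rgs5 (0.78) and C4b (0.30) had ratios of the other sign. The part of RNA from other cells in these ratios was not tested.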

How the data were processed

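The authors dissociated fixed cells from frozen hippocampus, made probe-based libraries and deposited filtered matrices of counts, whole UMIs per gene and cell without normalization, for 19059 genes (mm10; Cell Ranger 8.0.0 in the submitters' processing notes, 7.1.0 in the file headers). The libraries held 279525565 (control) and 259059908 UMIs (tomatidine). Genes that share a symbol (6 symbols) were kept apart by identifier.

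The members and gene lists were chosen with earlier results of these data known. For each library the UMIs of a class were pooled, and a gene's sum was divided by the class total (CPM). Log2 ratios have exact conditional binomial intervals, shares exact (Clopper-Pearson) ones and differences of shares Newcombe intervals, all 95%. Ratios between genes' CPM within a library are not per length, so levels of different genes were not ranked. Named were the 8 genes at each end of the diet comparison, 10 at each end of the class comparisons, list members past 3-fold or at either end of a list, 10 genes with the highest and 5 with the lowest rho, and fixed genes; muscle genes and motifs were chosen after their values were seen. List medians used genes with at least 20 UMIs between diets and at least 100 between classes. Oligodendrocytes were cells with at least 10 UMIs and 10 per 10000 of Mog, Mag and Mobp and under 3 per 10000 of Gad1 and Gad2 and of the glutamate transporters. The ratios and intervals were tested on simulated data. Python 3.11.15, numpy 2.4.6, scipy 1.17.1, pandas 2.3.3, scanpy 1.11.5 (Scrublet) and edgeR 4.0.16 (TMM factors alone) were used, with gene coordinates from GENCODE for mm10. Alternatives covered cell filters, doublets, depth, the Pvalb and Sst limits, scaling, thinning, male cells and count minimums. Some genes that the naming rule selects are not reported here.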

Additional observations from a re-analysis of the deposited data

How the results depend on the processing

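No paired analysis was possible because each diet has 1 library. The counts of genes past a fold moved with the cells kept, the weighting of cells, thinning and the count minimum. With the study's filters of cells, 234 genes were past 1.5-fold higher with tomatidine (97 as reported), 53 genes were past 3-fold higher and 110 lower than in somatostatin interneurons (88 and 170). With the limit of 6000 genes added, which left 57 cells, these were 26 higher and 75 lower with tomatidine (97 and 154), 9 and 44 against somatostatin and 51 and 151 against CGE interneurons (138 and 398). The mean of per-cell CPM gave 270 and 298 genes with tomatidine, thinning to 5000 UMIs 250 and 267, at least 300 UMIs 21 and 41, at least 50 UMIs 190 and 297, and Pvalb of at least 5 per 10000 gave 72 lower. At least 300 UMIs gave 57 and 111 against somatostatin and 245 lower against CGE interneurons.

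Without GABA cells with Gata3 or Tal1, a setting chosen after seeing the data, the difference in the share of GABA cells was 0.74 points in place of -2.69. Ratios of single genes also changed sign. With the study's filters Igf2 was -0.89, Cd24a -0.18 and Reln -0.62, and with the limit of 6000 genes Doc2g was -0.36, Vtn 2.06 and Cdkn1a 0.0546. Without cells rich in glutamate transporters Ccn2 was 0.12, Vtn 1.49 and Rgs5 0.75. With Pvalb of at least 5 per 10000 Vtn was 1.81 and Rgs5 1.60. With few markers of other cells F3 was -0.052, Ccn2 0.14, Vtn 1.10, Rgs5 0.78 and C4b 0.30, and without the highest cell Ccn2 was 0.12, Vtn 1.82 and Rgs5 0.92. These last 2 settings were chosen after seeing the data. The removal of the cells is what changed the last 3 values, and the cause of the others was not tested. With 1 pooled library per diet, depth limits counting error only, and differences between mice cannot be seen.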
